A study of Mus musculus with 12 samples.

Results

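Chromatin accessibility at the loci of the 4 class IIa histone deacetylases, Hdac4, Hdac5, Hdac7 and Hdac9, was measured by ATAC-seq in thymic invariant natural killer T (iNKT) cells. ATAC-seq maps open chromatin by the insertions of a transposase. Of the 63309 regions of 500 bp in the deposited table, 59 overlapped the body of 1 of these genes or the 10 kb on either side of it, with 28 at Hdac4, 13 at Hdac5, 17 at Hdac7 and 1 at Hdac9. The 12 libraries came from the iNKT1, iNKT2 and iNKT17 subsets of untreated C57BL/6 mice (wildtype) and Hivep3-/- mice, 8 to 9 weeks of age, with 2 libraries per subset and genotype. Hivep3 encodes a large zinc finger protein, which the Hivep3-/- animals lack. The sample names number the mice 1 and 2, whereas the study's methods describe pooled thymi, so p-values measure the spread between these libraries, which may in part be technical. The subsets were sorted on CD122, ICOS, Izumo1r and CD138, brought together for the transposase reaction and sorted again afterwards on ICOS and CD138 alone. Accessibility is given throughout as the deposited log2 normalized insertions per kb, where 1 unit is a 2-fold difference.

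Class IIa histone deacetylases shuttle between nucleus and cytoplasm. In the nucleus they bind transcription factors of the MEF2 family and bring in corepressor complexes that hold the class I enzyme Hdac3, since their own catalytic activity is weak. Kinases of the CaMK, protein kinase D and salt-inducible kinase families phosphorylate them, after which 14-3-3 proteins hold them in the cytoplasm and their targets are released. In the thymus Hdac7 is known for control of T cell selection downstream of the T cell receptor and for restraint of the innate effector programme directed by PLZF, the product of Zbtb16. Hdac4 is best known from cartilage and muscle, Hdac5 and Hdac9 from heart and muscle, and Hdac9 also from regulatory T cells.

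All 4 genes lie on the minus strand. In mm10 with the GENCODE vM21 annotation, Hdac4 (ENSMUSG00000026313.16) spans chr1:91928779-92195699, Hdac5 (ENSMUSG00000008855.17) chr11:102194432-102230166, Hdac7 (ENSMUSG00000022475.19) chr15:97792664-97844502 and Hdac9 (ENSMUSG00000004698.10) chr12:34047580-34917095. Of the 59 regions, 37 were intronic, 10 lay within 1000 bp of a start site of the gene itself, 4 lay at start sites of neighbouring genes, 2 were exonic and 6 were in the flanks. Positions below are distances in kb from the annotated start of the gene, positive downstream in the direction of transcription.

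The promoter sequences shown are the 250 bases upstream of start sites whose accessibility is described below, from RefSeq (GRCm38.p6, the assembly of mm10). All are written 5′ to 3′ on the strand of the gene, and capitals mark the motif matches. The first pair are the Hdac7 starts, of which the upstream start passed the test between subsets and the inner start did not. The others are the main starts of Hdac4 and Hdac5, whose levels varied little.
Hdac7 promoter, upstream start (chr15:97844503-97844752, minus strand): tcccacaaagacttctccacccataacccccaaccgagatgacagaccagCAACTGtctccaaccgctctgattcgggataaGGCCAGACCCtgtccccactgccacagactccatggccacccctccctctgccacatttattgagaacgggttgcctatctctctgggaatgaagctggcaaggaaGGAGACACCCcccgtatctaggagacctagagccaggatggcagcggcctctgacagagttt
Hdac7 promoter, inner start (chr15:97831768-97832017, minus strand): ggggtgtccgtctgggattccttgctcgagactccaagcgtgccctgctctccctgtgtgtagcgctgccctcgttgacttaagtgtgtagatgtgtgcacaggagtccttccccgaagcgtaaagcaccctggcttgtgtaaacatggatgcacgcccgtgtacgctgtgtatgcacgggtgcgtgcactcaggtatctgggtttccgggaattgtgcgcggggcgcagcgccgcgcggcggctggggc
Hdac4 promoter, main start (chr1:92180342-92180591, minus strand): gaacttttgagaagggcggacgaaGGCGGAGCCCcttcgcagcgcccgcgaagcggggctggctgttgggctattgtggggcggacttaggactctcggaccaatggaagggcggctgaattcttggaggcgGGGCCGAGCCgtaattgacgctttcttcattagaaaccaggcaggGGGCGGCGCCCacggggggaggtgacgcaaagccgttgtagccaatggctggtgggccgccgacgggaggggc
Hdac5 promoter, main start (chr11:102230173-102230422, minus strand): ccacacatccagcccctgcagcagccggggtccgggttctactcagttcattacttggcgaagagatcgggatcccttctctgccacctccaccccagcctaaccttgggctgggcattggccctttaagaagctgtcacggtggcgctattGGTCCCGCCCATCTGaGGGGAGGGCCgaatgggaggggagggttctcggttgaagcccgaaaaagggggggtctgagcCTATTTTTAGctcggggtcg
The upstream Hdac7 promoter held 2 matches to the NF-kB motif and 1 to the E-box, whereas the inner Hdac7 promoter held no match to any of the 10 motifs searched. The Hdac4 promoter held 4 NF-kB matches, some of them overlapping each other. In the Hdac5 promoter, 1 MEF2 match, 2 NF-kB matches and 1 E-box were found, and an NF-kB match overlapped the E-box.

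The central 300 bases of 5 intronic regions are given on the plus strand of the same assembly, because these regions separated the subsets or, for the Hdac7 intron, because the genotype difference varied with the subset. Each is named by its gene and the first base of its 500 bp region.
Hdac4 92069408 (chr1:92069508-92069807, plus strand): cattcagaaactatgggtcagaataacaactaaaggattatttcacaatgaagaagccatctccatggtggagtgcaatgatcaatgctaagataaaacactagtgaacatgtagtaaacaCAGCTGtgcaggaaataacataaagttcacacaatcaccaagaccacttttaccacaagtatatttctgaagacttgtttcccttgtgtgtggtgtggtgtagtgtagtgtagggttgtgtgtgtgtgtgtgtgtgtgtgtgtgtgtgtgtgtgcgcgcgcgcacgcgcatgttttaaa
Hdac4 92119140 (chr1:92119240-92119539, plus strand): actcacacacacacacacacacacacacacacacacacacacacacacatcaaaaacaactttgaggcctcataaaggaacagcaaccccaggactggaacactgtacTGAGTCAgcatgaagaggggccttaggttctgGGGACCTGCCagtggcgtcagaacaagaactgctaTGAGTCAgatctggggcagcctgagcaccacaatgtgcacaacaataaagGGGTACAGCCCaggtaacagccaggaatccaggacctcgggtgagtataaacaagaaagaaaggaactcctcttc
Hdac4 92142351 (chr1:92142451-92142750, plus strand): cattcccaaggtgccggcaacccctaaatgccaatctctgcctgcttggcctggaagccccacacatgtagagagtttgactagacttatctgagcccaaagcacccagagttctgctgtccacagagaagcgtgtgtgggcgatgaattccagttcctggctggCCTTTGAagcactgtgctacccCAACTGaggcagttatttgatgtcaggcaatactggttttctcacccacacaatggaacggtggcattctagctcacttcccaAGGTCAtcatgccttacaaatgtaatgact
Hdac5 102208787 (chr11:102208887-102209186, plus strand): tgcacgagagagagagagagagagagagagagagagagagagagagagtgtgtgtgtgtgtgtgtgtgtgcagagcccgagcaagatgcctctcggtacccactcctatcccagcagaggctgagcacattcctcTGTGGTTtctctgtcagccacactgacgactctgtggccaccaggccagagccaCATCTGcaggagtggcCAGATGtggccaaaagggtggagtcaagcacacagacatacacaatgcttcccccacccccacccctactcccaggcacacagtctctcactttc
Hdac7 97841823 (chr15:97841923-97842222, plus strand): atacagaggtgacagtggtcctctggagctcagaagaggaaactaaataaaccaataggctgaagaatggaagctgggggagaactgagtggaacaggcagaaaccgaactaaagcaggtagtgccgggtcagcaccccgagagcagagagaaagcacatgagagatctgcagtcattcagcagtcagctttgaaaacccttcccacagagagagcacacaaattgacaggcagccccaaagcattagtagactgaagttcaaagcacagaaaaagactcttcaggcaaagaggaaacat
The Hdac4 region high in iNKT17 cells (92119140) held 3 NF-kB matches, some overlapping, and 2 bZIP matches. The Hdac4 region high in iNKT1 cells (92069408) held 1 E-box, and that high in iNKT2 cells (92142351) held 1 TCF, 1 ROR and 1 E-box match. The Hdac5 region held 1 Runt and 2 E-box matches, and the Hdac7 intron held no match to the 10 motifs.

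Motifs were searched on both strands by their letters. In the central 300 bases of all 63309 regions, MEF2 (CTA and TAG with any 4 bases between them) was present in 4.01%, NF-kB (GGG and CC with any 5 bases between them) in 46.1%, Runt (AACCACA) in 13.7%, ETS (ACNGGAAGT) in 4.71% and TCF (TCAAAGG) in 6.20%. T-box (GGTGTGA) was present in 5.86% of them, bZIP (TGANTCA) in 11.5%, Egr (GCGTGGG) in 4.6%, ROR (AGGTCA) in 17.6% and the E-box (CAGNTG) in 56.8%. In the 250 bases upstream of 32851 RefSeq promoters, the matching shares were 3.20% for MEF2, 45.8% for NF-kB, 4.40% for Runt, 2.03% for ETS and 4.16% for TCF, and 3.33%, 6.75%, 4.30%, 14.02% and 44.8% for T-box, bZIP, Egr, ROR and the E-box. Among the 59 regions, 3 held a MEF2 match, 29 NF-kB, 14 Runt, 3 ETS, 4 TCF, 4 T-box, 6 bZIP, 4 Egr, 11 ROR and 27 an E-box. A match is a description of the letters and not a bound site.

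A group was counted as accessible at a region when its mean reached 5 normalized insertions per kb on the linear scale. By this measure 38 of the 59 regions were accessible in all 6 groups of subset and genotype. The share of 64.4% was close to the 65.0% of all regions in the table. The iNKT2 cells had the most accessible member regions, 52 in either genotype (88.1%, against 83.2% of all regions). The iNKT1 cells had 48 in C57BL/6 and 49 in Hivep3-/- (81.4% and 83.1%, all regions 82.3% and 82.7%). The iNKT17 cells had 45 and 44 (76.3% and 74.6%, all regions 83.1% in either genotype). Across the 59 regions, replicate libraries were 0.361 apart on the log2 scale (root mean square, range 0.269 to 0.493 over 6 pairs), libraries of the same subset but different genotype 0.569 (0.481 to 0.628 over 12 pairs) and libraries of different subsets 1.24 (1.09 to 1.37 over 24 pairs). The subset, more than the genotype, therefore separated the libraries at these loci. In bulk ATAC-seq, fewer cells with an open site and a less open site in every cell cannot be told apart.

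**Figure D1:**
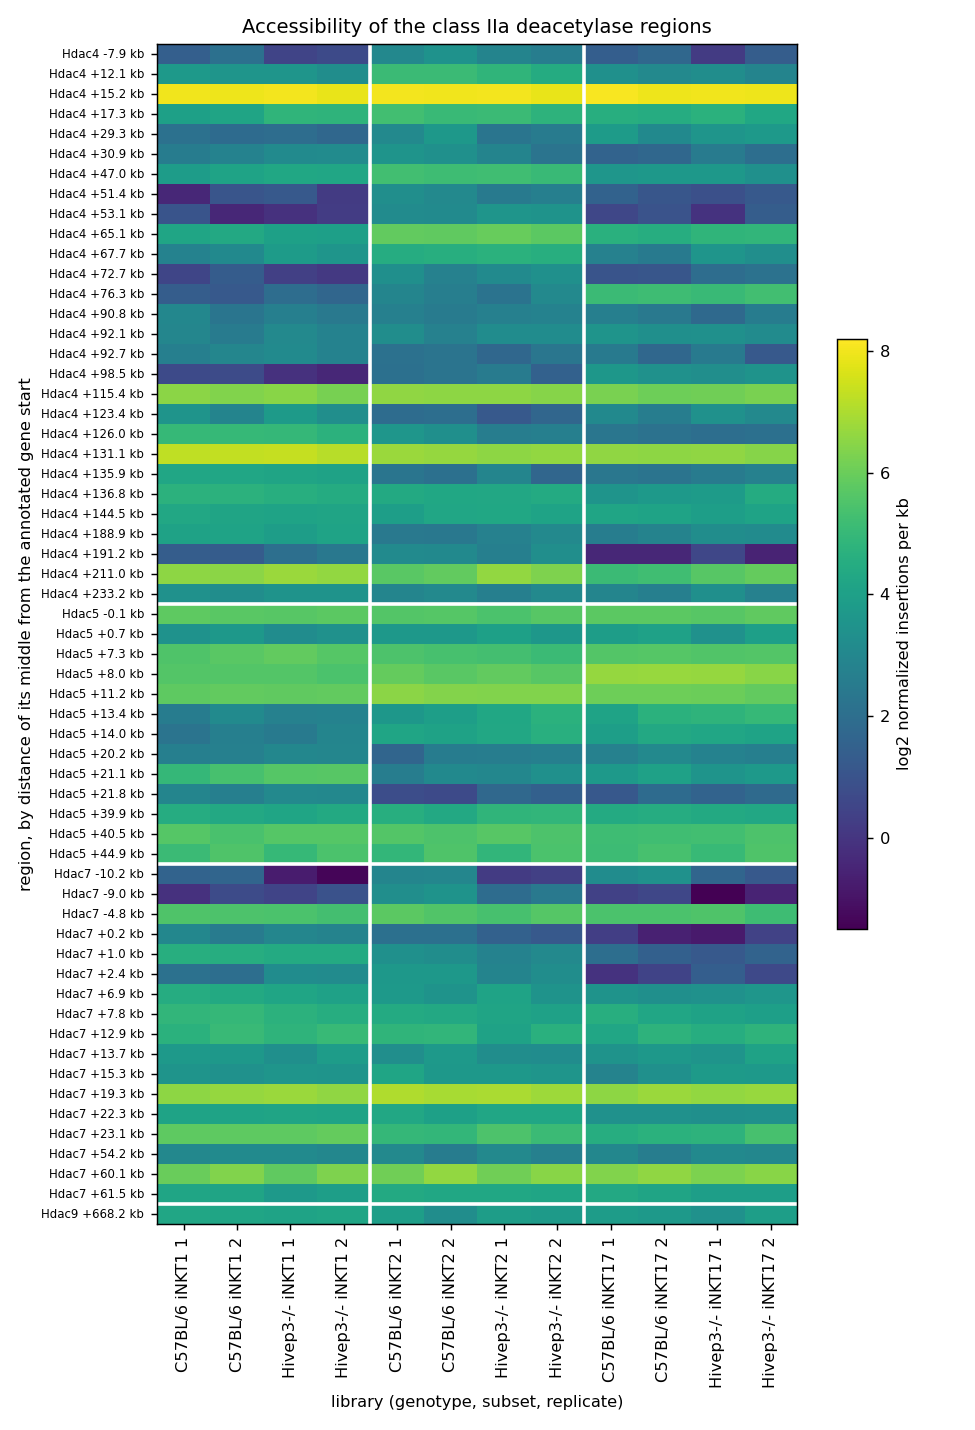
Log2 normalized insertions per kb at the 59 regions (rows, named by gene and kb from the annotated gene start) in the 12 libraries (columns, by subset and genotype). Rows at the Hdac4 main promoter are uniformly high, between 7.89 and 8.10 in every library, whereas many Hdac4 intronic rows differ between subsets.

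Most marker genes were highest in the subset they mark, with exceptions. The mean over the start-site regions of the 5 iNKT1 markers was 5.59 in C57BL/6 and 5.66 in Hivep3-/- iNKT1 cells, against 3.60 and 3.04 in iNKT2 and 2.11 and 2.21 in iNKT17 cells. Il2rb, which encodes the sorting marker CD122, ran the other way within this list, at 7.39 and 7.40 in C57BL/6 iNKT17 against 6.96 and 7.09 in iNKT1, and at 7.29 and 7.28 against 7.0 and 7.09 in Hivep3-/- cells. The 5 iNKT17 markers averaged 4.48 and 4.68 in iNKT17 cells and between -0.70 and -0.19 in the other 4 groups. The 5 iNKT2 markers separated the subsets less, at 5.12 and 5.07 in iNKT2, 4.83 and 4.39 in iNKT1 and 3.93 and 3.71 in iNKT17 cells, and Gata3 (5.39 to 5.66) and Icos (5.25 to 5.65) spanned narrow ranges over the 12 libraries. The B cell markers Pax5 and Ebf1 had a start-site region, and their mean was lowest in iNKT1 (2.90 and 3.22 in C57BL/6 and Hivep3-/- cells) and higher in iNKT2 (3.89 and 3.88) and iNKT17 (3.58 and 3.95). Of 4 myeloid markers 1 had, Spi1, which stepped down from iNKT1 (5.20 and 5.29) through iNKT2 (4.81 and 4.53) to iNKT17 (4.18 and 4.24). Cd79a, Csf1r, Lyz2 and Itgam, and the 4 markers of double-positive thymocytes, had no start-site region. At Hivep3 itself none of the 21 regions passed the test between genotypes in any subset, and the accessibility of a gene does not check its disruption.

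Differences were tested with limma on all 12 libraries. A region was tested when at least 1 of the groups compared was accessible, and it passed when the Benjamini-Hochberg adjusted p was below 0.1 and the difference at least 3-fold. A region that is accessible in 1 group only enters the test through the group where it is high. This is said for the regions described singly below. Where a call at such a described region fell below 3-fold with a pseudocount of 1 or 5 on the linear scale, the value is given beside it. A pseudocount shrinks folds of low values. The counts also hold regions with these limits that are not described singly. Between the subsets of C57BL/6 mice, 21 of the 59 regions (35.6%) passed in at least 1 of the 3 pairings, against a background of 29.7% of all tested regions, and in Hivep3-/- mice 20 passed, against 29.6%. In both genotypes 15 did (background 24.3%), and in at least 1 genotype 26 did (44.1%, background 34.8%). These shares were near those of all regions and are not particular to the class IIa genes. By gene, the 26 regions comprised 17 of 28 at Hdac4, 4 of 13 at Hdac5, 5 of 17 at Hdac7 and 0 of 1 at Hdac9. By position, they comprised 18 of 37 intronic regions, 4 of 10 at the genes' own starts, 3 of 6 in the flanks, 1 of 2 exonic regions and 0 of 4 at the starts of neighbouring genes.

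In C57BL/6 cells, 12 of 58 tested regions differed between iNKT1 and iNKT2, 4 higher and 8 lower in iNKT1 (background 16.0%, 7.33% higher and 8.71% lower). Between iNKT1 and iNKT17, 8 of 52 differed, 4 in each direction (background 20.5%, 9.72% higher and 10.8% lower), and between iNKT2 and iNKT17 11 of 55 differed, 10 of them higher and 1 lower in iNKT2 (background 16.2%, 7.72% higher and 8.49% lower). In Hivep3-/- cells the counts were 11 of 56 (4 higher and 7 lower in iNKT1, background 17.3%, 8.77% higher and 8.54% lower), 9 of 52 (5 and 4, background 19.3%, 9.48% and 9.83%) and 8 of 54 (6 higher and 2 lower in iNKT2, background 15.6%, 7.33% and 8.25%). Of these, 6, 5 and 6 regions passed in the same direction in both genotypes for the 3 pairings in this order, and no region passed in opposite directions. Regions higher in iNKT2 than in both other subsets numbered 7 in C57BL/6 cells (background 3.87%), with 5 at Hdac4 and 2 at Hdac7. Hivep3-/- cells had 2 (background 3.86%), both at Hdac4. All except chr1:92127718-92128217 at Hdac4 entered these tests through iNKT2 alone, the group where they are high. With a pseudocount of 5 each was below 3-fold against iNKT1. The exception was also below 3-fold against iNKT1 with a pseudocount of 1 (-1.48) and with a renewed quantile normalization (-1.58). The same held without C57BL/6 iNKT1 replicate 1 (-1.44) or iNKT2 replicate 2 (-1.56). In C57BL/6 cells 1 region was higher in iNKT1 than in both others (5.26%), 1 lower in iNKT1 (2.99%) and 1 higher in iNKT17 (6.86%), while none was lower in iNKT2 (1.02%) or in iNKT17 (2.68%). The region higher in iNKT1, chr1:92059513-92060012 at Hdac4, entered these tests through iNKT1 alone. With a pseudocount of 5 it was above iNKT2 and iNKT17 by 1.32 and 1.27, below 3-fold. In Hivep3-/- cells 2 were higher (6.11%) and 1 lower in iNKT1 (2.72%), 1 lower in iNKT2 (1.39%), and 1 higher (6.29%) and 1 lower in iNKT17 (1.83%).

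Hdac7, the class IIa member best known in thymocytes, has 4 regions at its own starts, and the pair at the upstream start passed the test between subsets where the pair at the inner start did not. Accessibility at the upstream start was highest in iNKT1, intermediate in iNKT2 and lowest in iNKT17 cells, whereas all 3 subsets were open at the inner start. The region over the upstream start (chr15:97844082-97844581, +0.2 kb) was at 3.00 and 2.52 in the C57BL/6 iNKT1 libraries, 2.08 and 2.09 in iNKT2, and 0.28 and -0.61 in iNKT17. In the Hivep3-/- libraries it was at 2.95 and 2.85 in iNKT1, 1.52 and 1.20 in iNKT2, and -0.78 and 0.40 in iNKT17. The 3 subsets did not overlap in either genotype, and their order was that of the Spi1 start given above, whose part in this result was not tested. It was higher in iNKT1 than in iNKT17 by 2.92 in C57BL/6 (SE 0.438, adjusted p = 7.17e-05) and by 3.09 in Hivep3-/- cells (SE 0.438, adjusted p = 4.82e-05). Against iNKT2, the iNKT1 value was 0.67 above in C57BL/6 (adjusted p = 0.227) and 1.54 above in Hivep3-/- cells (adjusted p = 0.00917), short of 3-fold. The region entered the test through iNKT1 alone, since iNKT2 and iNKT17 cells were below 5 per kb, and it was not tested when all 12 libraries had to average 5 per kb. The differences of iNKT1 over iNKT17 were 1.00 and 1.07, below 3-fold, with a pseudocount of 5.

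The neighbouring region downstream of the upstream start (chr15:97843211-97843710, +1.0 kb) followed the same order at a higher level. It was at 4.58 and 4.53 in the C57BL/6 iNKT1 libraries, 3.38 and 3.24 in iNKT2, and 2.00 and 1.48 in iNKT17. The Hivep3-/- libraries were at 4.44 and 4.41, 2.79 and 3.05, and 1.21 and 1.57 in the same order of subsets. No library of 1 subset overlapped another subset. The iNKT1 cells were higher than iNKT17 by 2.82 in C57BL/6 (SE 0.230, adjusted p = 3.25e-07) and by 3.03 in Hivep3-/- cells (SE 0.230, adjusted p = 1.88e-07). The intermediate steps were smaller than 3-fold, 1.25 and 1.5 between iNKT1 and iNKT2 (adjusted p = 0.000527 and 0.000102) and 1.57 and 1.53 between iNKT2 and iNKT17 (adjusted p = 8.08e-05 and 0.000107) in C57BL/6 and Hivep3-/- cells.

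At the inner start the subsets lay closer together. The region at +12.9 kb (chr15:97831360-97831859) ranged from 4.07 to 5.06 over the 12 libraries and that at +13.7 kb (chr15:97830552-97831051) from 3.21 to 4.10. Subset differences spanned -0.29 to 0.56 at the first and -0.57 to 0.35 at the second, and none reached 3-fold. Only 1 comparison at each had an adjusted p below 0.1, both in Hivep3-/- cells, namely 0.56 between iNKT1 and iNKT2 (adjusted p = 0.0424) and -0.57 between iNKT2 and iNKT17 (adjusted p = 0.0625). The most accessible Hdac7 region was intronic, at +19.3 kb (chr15:97824952-97825451), with a mean of 6.74 and a range of 6.55 to 7.04.

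**Figure D2:**
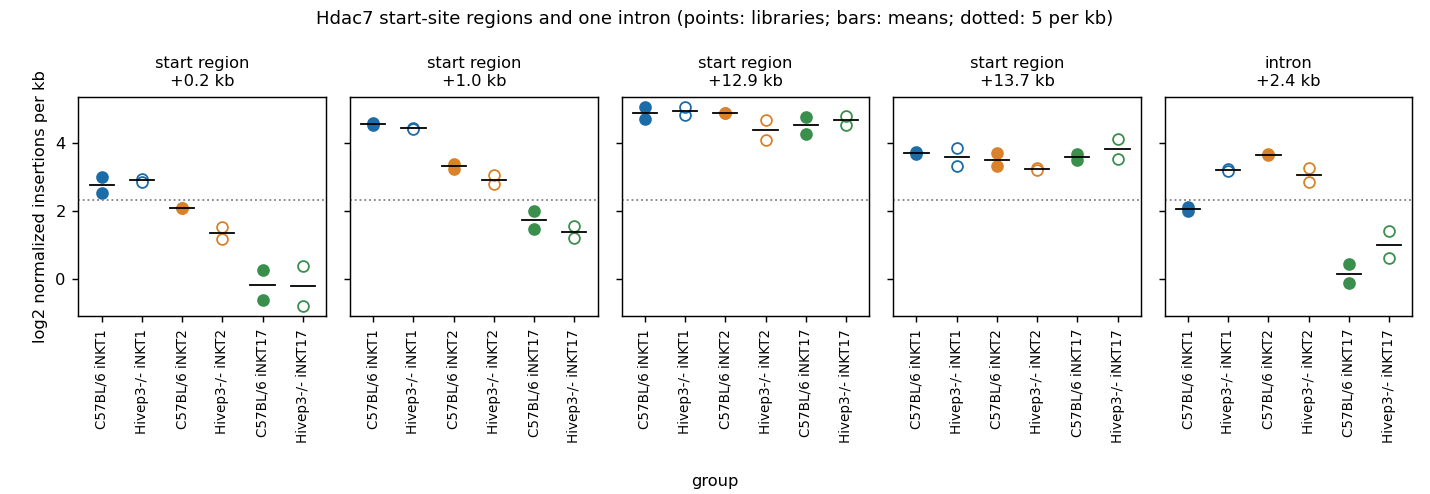
Log2 normalized insertions per kb at the 4 Hdac7 start regions (+0.2, +1.0, +12.9 and +13.7 kb from the annotated start) and the intronic region at +2.4 kb, by subset; points are libraries (filled C57BL/6, open Hivep3-/-) and bars are means of 2 libraries. The regions at +0.2 and +1.0 kb step down from iNKT1 to iNKT17, those at +12.9 and +13.7 kb stay level, and at +2.4 kb the iNKT1 libraries lie at 2.13 and 2.00 in C57BL/6 and at 3.23 and 3.16 in Hivep3-/- mice.

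A further Hdac7 region reached 5 per kb in C57BL/6 iNKT2 and in none of the other 5 groups, so it entered the test through the group where it is high. This flanking region at -9.0 kb (chr15:97853303-97853802) was at 3.28 and 3.49 in C57BL/6 iNKT2 and between -0.11 and 0.71 in the 4 C57BL/6 libraries of the other subsets. The iNKT1 cells were lower than iNKT2 by 3.08 on the log2 scale (SE 0.458, adjusted p = 9.66e-05) and iNKT2 was higher than iNKT17 by 2.91 (SE 0.458, adjusted p = 0.000146). In Hivep3-/- cells the iNKT2 libraries were at 1.93 and 2.41 and no group reached 5 per kb, so the subsets were not tested there. With a pseudocount of 5 the C57BL/6 differences were -1.3 and 1.27, both below 3-fold, and with the filter on the mean of all 12 libraries the region was not tested. The change of iNKT2 between genotypes was -1.21 (adjusted p = 0.112).

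Hdac4, with the longest stretch of accessible introns among the 4 genes, combined a promoter that was level across the libraries with intronic regions that differed by subset. Its main promoter (chr1:92180294-92180793, +15.2 kb) was between 7.89 and 8.10 in the 12 libraries, with a mean of 7.98, a level above 99.8% of all regions. Every subset pair had an adjusted p of 0.550 or more there, and every genotype comparison 0.493 or more. Away from this promoter, more regions were higher in iNKT2 than in iNKT17 cells. In C57BL/6 cells 8 of 26 tested Hdac4 regions were higher in iNKT2 than in iNKT17 and 1 was lower (background 7.72% and 8.49%). The median difference was 0.62 against 0.03 over all tested regions. With a pseudocount of 5 all 8 higher regions were below 3-fold, at 0.85 to 1.47. Except for those starting at 92127718 and 92183310, they were below 5 per kb in iNKT17 and entered the test through iNKT2. In Hivep3-/- cells 5 of 27 were higher and 2 lower (background 7.33% and 8.25%), and the median difference was 0.35. These 5 higher regions were also below 3-fold with a pseudocount of 5.

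Another 2 regions lie at Hdac4 starts. That at +188.9 kb (chr1:92006593-92007092), at an internal start, was at 4.10 and 4.14 in C57BL/6 iNKT1, 2.44 and 2.39 in iNKT2, and 2.60 and 2.85 in iNKT17. It was higher in iNKT1 than in iNKT2 by 1.71 in C57BL/6 cells (SE 0.198, adjusted p = 1.23e-05). In Hivep3-/- cells the difference was 1.10 (adjusted p = 0.000364), below 3-fold, as was that in C57BL/6 cells with a pseudocount of 1 (1.54) or 5 (1.12). The region at +47.0 kb (chr1:92148480-92148979) was at 5.27 and 5.18 in C57BL/6 and 5.22 and 5.07 in Hivep3-/- iNKT2 libraries, above the 3.38 to 4.28 of the other 8 libraries. The difference of iNKT2 over iNKT17 was 1.58 in C57BL/6 (SE 0.157, adjusted p = 3.08e-06), just under 3-fold, and 1.61 in Hivep3-/- cells (SE 0.157, adjusted p = 2.91e-06), just over it. The call in Hivep3-/- cells was lost without iNKT2 replicate 1 (1.54) or iNKT17 replicate 2 (1.46), and with a pseudocount of 1 (1.53) or 5 (1.28).

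The strongest Hdac4 difference favoured iNKT17. The intronic region at +76.3 kb (chr1:92119140-92119639), whose centre is printed above, was at 5.12 and 5.20 in C57BL/6 iNKT17, 2.91 and 2.64 in iNKT2, and 1.35 and 1.21 in iNKT1. The Hivep3-/- libraries were at 5.08 and 5.28 in iNKT17, 2.20 and 3.05 in iNKT2, and 1.96 and 1.69 in iNKT1. In iNKT1 cells it was lower than in iNKT17 by 3.88 on the log2 scale in C57BL/6 (SE 0.263, adjusted p = 5.92e-08), a difference of -3.36 in Hivep3-/- cells (adjusted p = 2.45e-07). The iNKT2 value was below that of iNKT17 as well, with differences of -2.38 (adjusted p = 7.32e-06) and -2.56 (adjusted p = 4.44e-06). This was 1 of 2 members that stood apart from both other subsets in both genotypes. A second region at +98.5 kb (chr1:92096929-92097428) was also lowest in iNKT1, at 0.67 and 0.71 against 3.63 and 3.41 in iNKT17 of C57BL/6, with iNKT2 between them at 2.08 and 2.22. Its difference between iNKT1 and iNKT17 was -2.83 in C57BL/6 (adjusted p = 1.02e-05) and -3.65 in Hivep3-/- cells (adjusted p = 1.16e-06). With a pseudocount of 5 these were -1.32 and -1.41, below 3-fold. The region entered the test through iNKT17 alone, since iNKT1 and iNKT2 were below 5 per kb.

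The second member apart from both other subsets in both genotypes was an iNKT2 region at +53.1 kb (chr1:92142351-92142850). It was at 3.17 and 3.14 in C57BL/6 and 3.55 and 3.49 in Hivep3-/- iNKT2 libraries, and the other 8 libraries lay between -0.41 and 1.35. The difference of iNKT1 from iNKT2 was -2.85 in C57BL/6 (SE 0.515, adjusted p = 0.000448) and -3.45 in Hivep3-/- cells (adjusted p = 8.14e-05), and that of iNKT2 over iNKT17 was 2.39 (adjusted p = 0.00171) and 2.89 (adjusted p = 0.000408). The region entered the test through iNKT2 alone, since the other groups were below 5 per kb. The 4 differences were -1.13, -1.44, 1.05 and 1.3, all below 3-fold, with a pseudocount of 5, and with the filter on the mean of all 12 libraries it was not tested. An exonic region at +191.2 kb (chr1:92004222-92004721) had the widest gap between iNKT2 and iNKT17 among the Hdac4 regions. It was at 3.15 and 3.11 in C57BL/6 iNKT2 and -0.41 and -0.41 in iNKT17. The iNKT2 value was higher by 3.54 in C57BL/6 (adjusted p = 8.22e-06) and by 2.98 in Hivep3-/- cells (adjusted p = 3.76e-05). The region entered the test through iNKT2 alone, since iNKT1 and iNKT17 were below 5 per kb. The gap rests on low iNKT17 values and was 1.26 and 1.10, below 3-fold, with a pseudocount of 5. The region was not tested when all 12 libraries had to average 5 per kb.

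An iNKT1 region lay at +126.0 kb in an Hdac4 intron (chr1:92069408-92069907). The iNKT1 libraries were at 5.00 and 5.01 in C57BL/6 and at 4.95 and 4.75 in Hivep3-/- mice. This was above iNKT17 by 2.76 in C57BL/6 (SE 0.186, adjusted p = 5.79e-08) and by 2.80 in Hivep3-/- cells (adjusted p = 5.74e-08). Against iNKT2 the difference was 1.53 in C57BL/6 (adjusted p = 1.86e-05), short of 3-fold, and 2.20 in Hivep3-/- cells (adjusted p = 6.23e-07), the latter 1.58 and just under 3-fold with a pseudocount of 5. Regions high in each of the 3 subsets were thus found within the same gene, as the map along Hdac4 shows.

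**Figure D3:**
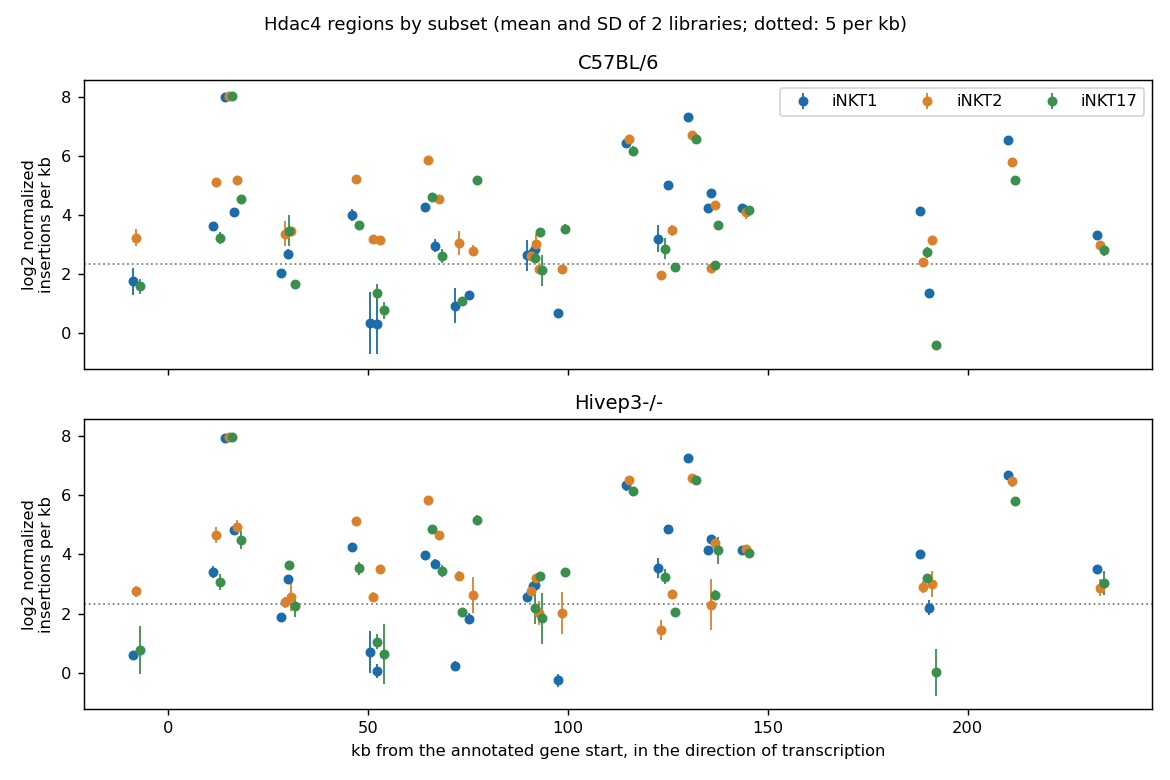
Mean log2 normalized insertions per kb of each subset (error bars, SD of 2 libraries) at the 28 Hdac4 regions, against the distance in kb from the annotated Hdac4 start, with 1 panel per genotype. At +76.3 kb the iNKT17 mean is highest, at +126.0 kb the iNKT1 mean and at +53.1 kb the iNKT2 mean, while the 3 subsets coincide near 7.98 at +15.2 kb.

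Hdac5, a class IIa member expressed in many tissues, was accessible at its starts in every subset, and its subset differences were intronic. The region at its main start (chr11:102230028-102230527) was between 5.47 and 5.83 in the 12 libraries, and no subset pair there had an adjusted p below 0.1. The next (chr11:102229197-102229696) ranged from 3.20 to 4.07. The most accessible Hdac5 region lay at an internal start (chr11:102218702-102219201) with a mean of 6.09, between 5.81 and 6.51. The iNKT2 libraries were the highest there, and the difference of iNKT1 from iNKT2 was -0.62 in C57BL/6 cells (adjusted p = 7.92e-05), well below 3-fold.

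The intronic Hdac5 region at +21.1 kb (chr11:102208787-102209286) was highest in iNKT1 cells, at 4.95 and 5.38 in C57BL/6 and 5.65 and 5.67 in Hivep3-/- libraries. The iNKT17 libraries were at 3.72 and 4.07 and at 3.51 and 3.74, and the iNKT2 libraries at 2.59 and 3.11 and at 2.99 and 3.37. Again no subset overlapped another within a genotype. The iNKT1 cells were above iNKT2 by 2.31 in C57BL/6 (SE 0.220, adjusted p = 2.36e-06) and by 2.48 in Hivep3-/- cells (adjusted p = 9.09e-07). Against iNKT17 the difference was 1.27 in C57BL/6 (adjusted p = 0.000248), below 3-fold, and 2.04 in Hivep3-/- cells (adjusted p = 4.45e-06). A weaker neighbour (chr11:102208166-102208665) was higher in iNKT1 than in iNKT2 by 2.07 in C57BL/6 (adjusted p = 0.000109), and the difference was 1.42 in Hivep3-/- cells (adjusted p = 0.00176). It entered the test through iNKT1 alone, and the C57BL/6 difference was 0.85 with a pseudocount of 5.

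A further pair of Hdac5 intronic regions ran the other way, lowest in iNKT1. At chr11:102216522-102217021 the Hivep3-/- libraries were at 2.76 and 2.82 in iNKT1, 4.28 and 4.69 in iNKT2, and 4.80 and 5.00 in iNKT17. The difference of iNKT1 from iNKT17 was -2.11 in Hivep3-/- (adjusted p = 8.10e-06) and -1.55 in C57BL/6 cells (adjusted p = 0.000110), the latter below 3-fold, as was the former with a pseudocount of 5 (-1.55). At chr11:102215945-102216444 iNKT1 was lower than iNKT2 by 1.68 on the log2 scale in C57BL/6 cells, and the difference from iNKT17 was -1.68. Both calls were lost without C57BL/6 iNKT1 replicate 1 (-1.45 and -1.44), and that against iNKT17 also without iNKT17 replicate 2 (-1.47). In Hivep3-/- cells the difference of iNKT1 from iNKT2 at this region was -1.78, or -1.55 and below 3-fold without iNKT1 replicate 1, and that from iNKT17 was -1.49. With a pseudocount of 1 the C57BL/6 differences were -1.52 and -1.51, and with that of 5 they were -1.11 and -1.10 and the Hivep3-/- difference from iNKT2 -1.24.

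Hdac9 had 1 region in an intron (chr12:34248675-34249174), 188.4 kb from the nearest start site of the gene, and no region at a start. The C57BL/6 libraries were at 4.24 and 4.2 in iNKT1, 3.95 and 3.24 in iNKT2, and 3.87 and 3.76 in iNKT17. In Hivep3-/- mice they were at 4.14 and 4.21, 3.90 and 3.77, and 3.42 and 3.94 in the same order. The iNKT1 libraries were close to each other and above the 8 others. The differences with an adjusted p below 0.1 were 0.62 between iNKT1 and iNKT2 of C57BL/6 (adjusted p = 0.0370) and 0.50 between iNKT1 and iNKT17 of Hivep3-/- cells (adjusted p = 0.0852), both far below 3-fold. Genotype differences were -0.04, 0.24 and -0.14 in iNKT1, iNKT2 and iNKT17 (adjusted p = 0.965, 0.577 and 0.842).

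Most of the 59 regions in Hivep3-/- cells were within 3-fold of the C57BL/6 level. A single region passed the test, in iNKT2, in iNKT17 and in the average of the subsets, and it entered the tests in iNKT2 and iNKT17 through the C57BL/6 group alone. With the filter on the mean of all 12 libraries it was not tested and no member passed, whereas without a filter it passed in each subset. No region of 49 tested passed in iNKT1 cells by limma (background 1.15%), although 6 had an unadjusted p below 0.05. The share of all regions at that unadjusted limit is not given, so the 6 cannot be set against it. In iNKT2 1 of 54 passed (background 1.68%, and 1.20% lower), in iNKT17 1 of 46 (background 0.271%, and 0.138% lower) and in the average over subsets 1 of 59 (background 0.529%, and 0.327% lower). Median changes of the members were -0.04, -0.06 and -0.02 in iNKT1, iNKT2 and iNKT17, against -0.02, -0.00 and -0.01 over all tested regions. Counted by the adjusted p alone, without the 3-fold limit, 3 of 49 members were higher and none lower in iNKT1 (background 9.42%, 5.49% higher and 3.93% lower). In iNKT2 3 were higher and 4 lower (16.4%, 8.26% and 8.16%), in iNKT17 2 were higher and 1 lower (4.65%, 2.66% and 1.99%), and in the average 4 were higher and 6 lower (19.7%, 10.5% and 9.21%).

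**Figure D4:**
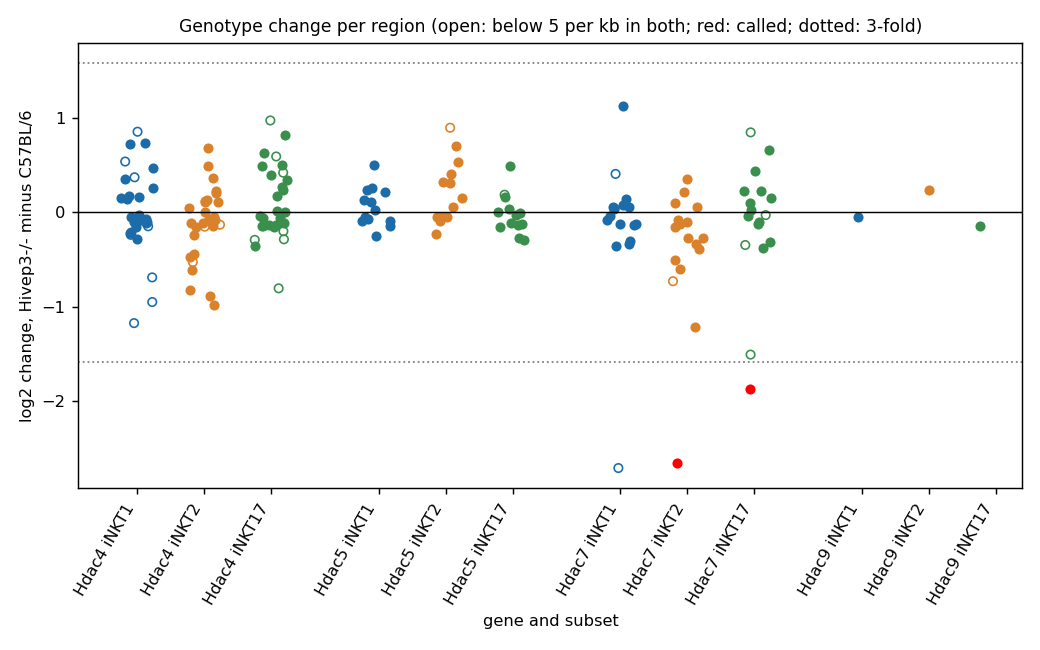
Log2 change of Hivep3-/- against C57BL/6 cells for each of the 59 regions, by gene and subset; dotted lines mark a 3-fold change, open points are regions below 5 per kb in both genotypes and red points passed the test. Most points lie within the dotted lines, and the red points are the same Hdac7 flanking region, at -2.66 in iNKT2 and -1.87 in iNKT17.

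The region that fell in Hivep3-/- cells lies at the edge of the Hdac7 window, at -10.2 kb from the annotated start (chr15:97854423-97854922), and also overlaps the end of Vdr, which encodes the nuclear receptor for vitamin D. The C57BL/6 libraries were at 1.61 and 1.66 in iNKT1, 2.91 and 2.95 in iNKT2, and 3.23 and 3.40 in iNKT17. The Hivep3-/- libraries were at -0.78 and -1.38, 0.20 and 0.35, and 1.66 and 1.23. The genotypes did not overlap in any subset. The change was -2.66 in iNKT2 (SE 0.346, adjusted p = 0.000589), -1.87 in iNKT17 (SE 0.346, adjusted p = 0.0165) and -2.41 in the average over subsets (SE 0.200, adjusted p = 1.83e-05). In iNKT1 it was -2.71, with both genotypes below 5 per kb, so it was not tested there. The call in iNKT17 was lost without C57BL/6 iNKT17 replicate 1, when the change was -1.96 with an adjusted p of 0.105. With a pseudocount of 5 the changes were -1.02 in iNKT2, -0.95 in iNKT17 and -0.85 in the average, and with that of 1 the change in iNKT17 was -1.56, all below 3-fold.

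Beyond the window, Vdr had 7 regions with this one included, of which 4 of 6 tested were lower in Hivep3-/- iNKT2 cells. Those outside the window that fell in iNKT2 lay at -46.2 kb (-1.94, adjusted p = 0.00632), -47.7 kb (-1.63, adjusted p = 0.00423) and -48.3 kb (-1.78, adjusted p = 0.0283) from the Hdac7 start. Their iNKT2 means were 2.95, 3.03 and 3.13 in C57BL/6 and 1.02, 1.40 and 1.35 in Hivep3-/- cells. These regions thus entered the test through the C57BL/6 group, where they are high. Their values with a pseudocount were not examined. In iNKT17 1 of 6 tested was lower, the region at the window edge. The Vdr start region, at -63.8 kb, changed by -0.16, 0.05 and 0.00 in the 3 subsets (adjusted p = 0.562, 0.860 and 0.994). Within the Hdac7 window no other region passed the genotype test.

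**Figure D5:**
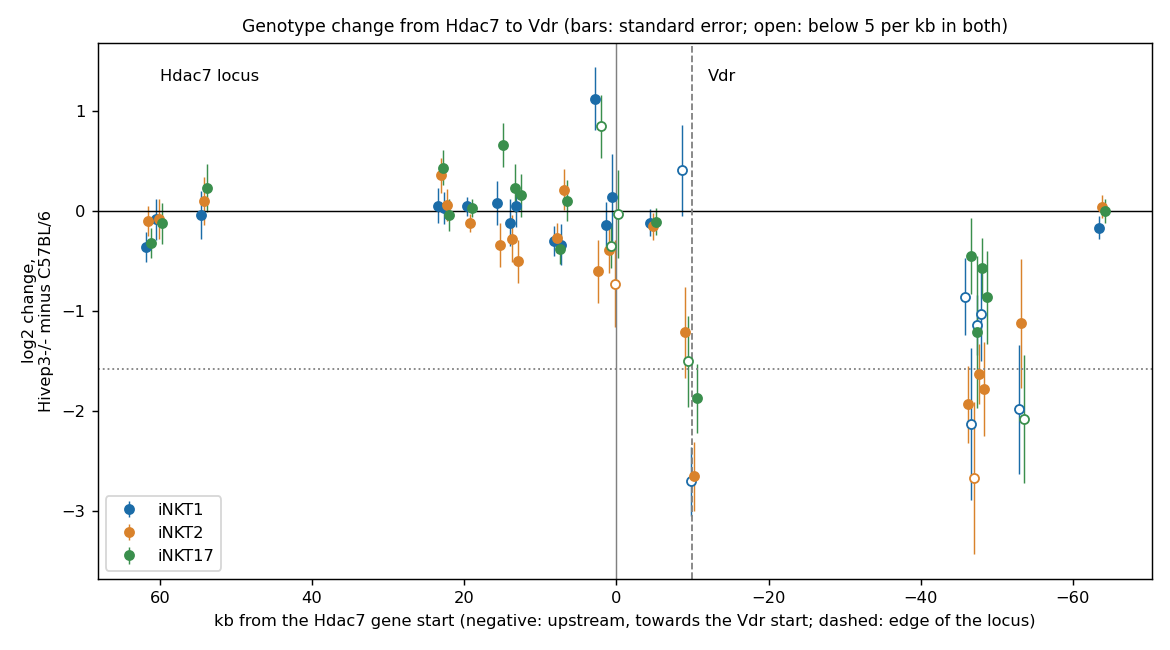
Log2 change of Hivep3-/- against C57BL/6 cells (bars, SE) at the Hdac7 and Vdr regions by subset, against the distance in kb from the annotated Hdac7 start, with the upstream side towards the Vdr start on the right. The dashed line is the edge of the Hdac7 window, and open points were below 5 per kb in both genotypes. The changes at -10.2 kb and between -46.2 and -48.3 kb lie below 0, while the Vdr start at -63.8 kb lies near 0.

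Smaller genotype differences within single subsets were seen at several Hdac4 regions. The exonic region chr1:91984434-91984933 was at 5.71 and 5.87 in C57BL/6 and 6.62 and 6.33 in Hivep3-/- iNKT2 libraries, and at 5.12 and 5.21 against 5.68 and 5.91 in iNKT17. The genotypes did not overlap in these subsets, and the differences of 0.69 (SE 0.115, adjusted p = 0.00253) and 0.63 (adjusted p = 0.0154) were below 3-fold. The intronic region chr1:92127718-92128217 differed by 0.72 in iNKT1 (adjusted p = 0.0445) and by 0.82 in iNKT17 (adjusted p = 0.0464). In iNKT2 the Hdac4 intronic regions starting at 92069408, 92164508 and 92166115 differed by -0.82, -0.88 and -0.98 (adjusted p = 0.0137, 0.0567 and 0.0451). Hdac5 had 2 such differences in iNKT2, 0.71 in an intron (chr11:102216522-102217021, adjusted p = 0.0839) and 0.40 at a G6pc3 start. Hdac7 had 1 in iNKT1, at the intron described next. In the average over subsets, Hdac7 had 1 region higher and 4 lower of 17 at an adjusted p below 0.1, with the flanking region above included. Hdac4 had 2 and 2 of 28, and Hdac5 had 1 and 0 of 13 (background 10.5% higher and 9.21% lower).

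The genotype change was then compared between subsets as an interaction. It passed at 1 of 58 tested members between iNKT1 and iNKT2 (background 3.06%). By limma it passed at 0 of 53 between iNKT1 and iNKT17 (background 1.42%) and at 0 of 56 between iNKT2 and iNKT17 (background 1.02%). An unadjusted p below 0.05 was found at 6 and 8 of these, and the share of all regions at that limit is not given. The single region was the Hdac7 intron at +2.4 kb (chr15:97841823-97842322), whose centre is printed above. Its C57BL/6 libraries were at 2.13 and 2.00 in iNKT1, 3.66 and 3.66 in iNKT2, and -0.10 and 0.44 in iNKT17. The Hivep3-/- libraries were at 3.23 and 3.16 in iNKT1, 2.86 and 3.25 in iNKT2, and 1.41 and 0.63 in iNKT17. The iNKT1 libraries of Hivep3-/- mice thus lay above those of C57BL/6, and the iNKT2 libraries below.

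At this Hdac7 intron the difference in genotype change between iNKT1 and iNKT2 was 1.73 (SE 0.446, adjusted p = 0.0363), made of 1.13 in iNKT1 (adjusted p = 0.0516) and -0.60 in iNKT2 (adjusted p = 0.258), neither of which reached 3-fold. The call was lost without any 1 of 4 libraries, namely C57BL/6 iNKT2 replicate 2, either Hivep3-/- iNKT1 library or Hivep3-/- iNKT2 replicate 1, when the difference was 1.53 to 1.76 and the adjusted p lay between 0.112 and 0.129. It was also lost with a pseudocount of 1 (1.52) or 5 (1.02), through the 3-fold limit. Between subsets, the difference of iNKT1 from iNKT2 was -1.59 in C57BL/6 cells (adjusted p = 0.000908) and 0.14 in Hivep3-/- cells (adjusted p = 0.738). The first was below 3-fold without C57BL/6 iNKT1 replicate 2 (-1.53), with a renewed quantile normalization (-1.53) and with a pseudocount of 1 (-1.39) or 5 (-0.94). The iNKT2 cells stayed above iNKT17 in both genotypes, by 3.48 in C57BL/6 (adjusted p = 1.40e-06) and 2.03 in Hivep3-/- cells (adjusted p = 0.000136). With a pseudocount of 5 these were 1.52 and 0.91, below 3-fold. In C57BL/6 cells only iNKT2 reached 5 per kb, so both C57BL/6 comparisons entered the test through it. In Hivep3-/- cells iNKT1 and iNKT2 reached it and iNKT17 did not.

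The partners of the class IIa enzymes were counted on the same footing, as regions that passed in at least 1 C57BL/6 subset pairing. The share was 35.6% among the members and 29.2% over all regions. Among kinases that phosphorylate them, 50 of 165 regions did (30.3%), and among known partners and target genes 38 of 119 (31.9%). The MEF2 factors had 5 of 33 (15.2%), the corepressors 9 of 59 (15.3%), the other deacetylases 4 of 23 (17.4%) and the 14-3-3 proteins 3 of 38 (7.89%). Between genotypes, 12 kinase regions passed in at least 1 subset (7.27%, background 2.46%), beside 1 of the members (1.69%). Among partners and targets 6 regions passed (5.04%), among MEF2 factors 2 (6.06%) and among 14-3-3 proteins 1 (2.63%). None of the corepressors or of the other deacetylases did. Camk2b, a calcium and calmodulin dependent kinase, had 5 regions higher in Hivep3-/- cells in each subset, of 13, 10 and 12 tested. Camk4, a related kinase of thymocytes, had 4 higher in iNKT2, and Sik3, a salt-inducible kinase, had 2 lower in iNKT2. Zbtb16, which encodes PLZF, had 6 regions lower of 68 tested in Hivep3-/- iNKT1 cells.

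The genes most like each member were ranked by the Pearson correlation of the mean over the locus across the 12 libraries, among genes with at least 5 regions. For Hdac7 these were Pxn (0.983), Camkk2 (0.974) and Gfra1 (0.974), and for Hdac4 Thtpa (0.979), Vdac2 (0.966) and Glce (0.965). For Hdac5 they were Pcgf5 (0.890), Arih1 (0.881) and Snx18 (0.866), and for Hdac9 Preb (0.905), Npm3 (0.901) and Fgf8 (0.892). Libraries of a subset share cells of a kind and the normalization, so these values are descriptions. Among the locus means, that of Hdac7 spanned the widest range, from 3.31 in Hivep3-/- iNKT17 to 4.17 in C57BL/6 iNKT2. That of Hdac5 was the narrowest, from 4.29 in C57BL/6 iNKT2 to 4.61 in C57BL/6 iNKT17. The mean over all regions ran from 3.83 in Hivep3-/- iNKT2 to 3.88 in C57BL/6 iNKT17. For Hdac9 the locus mean is the value of its 1 region.

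The 10 kb limit decided a few memberships. The Hdac7 region that fell in Hivep3-/- cells crossed the limit, and the next outside on that side lay 35.95 kb beyond. On the other side of Hdac7 a region 1.45 kb outside was at 5.07 in C57BL/6 iNKT1 and the last inside, 0.06 kb within, at 4.19. The nearest region outside the Hdac5 window, 4.89 kb beyond, was at 4.23, 4.32 and 5.86 in C57BL/6 iNKT1, iNKT2 and iNKT17, and the last inside on that side, 9.64 kb within, at 5.76, 5.61 and 5.76.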

How the data were processed

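ATAC-seq libraries were made by the authors from sorted thymic iNKT subsets of C57BL/6 and Hivep3-/- mice (Omni-ATAC). The authors trimmed reads (Trimmomatic 0.39, per the submitters' processing notes), mapped them to mm10 with the ENCODE pipeline, subsampled mapped reads for peak calling, left out the Y chromosome and blacklisted sites, and counted insertions in non-overlapping 500 bp regions with chromVAR. The deposited values are log2 normalized insertions per kb made by the authors with voom, and the libraries share their upper quantiles. Read depth is unknown from these values, so low values carry more error of unknown size, and no count test or counting interval was possible.

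Regions were assigned to genes with GENCODE vM21 (mm10), with 10 kb either side and starts within 1000 bp. Group means of the 12 libraries were fitted with limma 3.58.1 (R 4.3.3), with a mean trend in the variance prior, giving 6 residual and 7.17 prior degrees of freedom. A region was tested if either group reached a linear mean of 5, p-values were adjusted over all tested regions per comparison (Benjamini-Hochberg), and a call needed an adjusted p below 0.1 and 3-fold. The procedure was tested on simulated data, with genotype changes well above 3-fold placed only in regions accessible in every group. How well it finds changes near 3-fold, changes in regions near 5 per kb or subset differences was not examined. Regions at own starts, those with the largest changes, the highest region of each gene and interaction regions were named. The members and lists were chosen with earlier results of these data known, so neither is independent of them.

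Same-numbered libraries deviated together over all regions, with correlations of 0.12 to 0.167 between subsets of a genotype and 0.113 to 0.171 between genotypes of a subset, though libraries sharing neither were as close (0.0911 to 0.174). The pairing comes from the mouse numbers in the sample names. Alternatives were another filter, pseudocounts on the linear scale, another normalization, a 2-fold limit, a replicate block, a fit of only the compared libraries and leaving out each library. Motifs and sequences were read with pysam 0.24.0 under Python 3.11.15. No protein sequences were used here.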

Additional observations from a re-analysis of the deposited data

Results flagged for a closer look

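Of the class IIa regions, 4 were singled out because the genotype change differed between subsets by the interaction test. The limit was an adjusted p below 0.1, whatever the size. The share of all regions at this limit is not given here. The count is therefore a list and says nothing about the members as a set. Groups of 2 libraries are too small for a test of single outlying samples. The Hdac7 intron at +2.4 kb (chr15:97841823-97842322) had a difference of 1.73 between iNKT1 and iNKT2 (adjusted p = 0.0363) and alone reached 3-fold.

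The other 3 lie in Hdac4. At chr1:92178171-92178670 the genotype change was 0.74 in iNKT1 and -0.24 in iNKT2, an interaction of 0.98 (SE 0.238, adjusted p = 0.0280). Its iNKT1 libraries were at 4.0 and 4.18 in C57BL/6 and at 4.84 and 4.82 in Hivep3-/- mice. At chr1:92164508-92165007 the change was 0.47 in iNKT1 and -0.88 in iNKT2, an interaction of 1.35 (SE 0.387, adjusted p = 0.0562), and the iNKT2 change was also apart from that in iNKT17, by -1.47 (adjusted p = 0.0830). The iNKT2 libraries there were at 3.5 and 3.38 in C57BL/6 and at 2.89 and 2.23 in Hivep3-/- mice. At the exonic region chr1:91984434-91984933 the change was 0.15 in iNKT1 and 0.69 in iNKT2, an interaction of -0.53 (SE 0.163, adjusted p = 0.0722).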

How the results depend on the processing

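The 3-fold limit and the low values set most counts. With a pseudocount of 1 on the linear scale the subset pairings iNKT1 against iNKT2 and iNKT2 against iNKT17 gave 7 and 7 members in C57BL/6, the latter gave 4 in Hivep3-/- cells, and the iNKT17 genotype call and the iNKT1 against iNKT2 interaction fell to 0 and 0. With a pseudocount of 5 the C57BL/6 pairings gave 1, 3 and 1, the Hivep3-/- pairings 1, 4 and 1, and the genotype comparisons in iNKT2, iNKT17 and the average, and that interaction, gave 0. A pseudocount shrinks folds of low regions by construction. With a mean of 5 over all 12 libraries as the filter, fewer regions were tested: the genotype counts in iNKT2, iNKT17 and the average were 0, iNKT1 against iNKT2 gave 6 in C57BL/6, and iNKT2 against iNKT17 gave 5 in either genotype. Without a filter, the genotype count in iNKT1 was 1. With a 2-fold limit it was 1, the C57BL/6 pairings gave 23, 19 and 17, iNKT1 against iNKT17 and iNKT2 against iNKT17 in Hivep3-/- cells gave 14 and 14, and the interactions of iNKT2 with iNKT1 and with iNKT17 gave 2 and 1. Fitting only the compared libraries gave 2 for the iNKT1 against iNKT2 interaction, and was not run for the average. Leaving out 1 library gave 10 to 15, 7 to 9 and 11 to 12 for the C57BL/6 pairings, 10 to 13, 10 to 10 and 7 to 9 for the Hivep3-/- pairings, 0 to 1 for the iNKT17 genotype count and for the iNKT1 against iNKT2 interaction, and 0 to 2 for that of iNKT2 and iNKT17, which was 2 without Hivep3-/- iNKT17 replicate 2 and 1 without Hivep3-/- iNKT2 replicate 1. The iNKT17 genotype count was 0 without C57BL/6 iNKT17 replicate 1, and the iNKT1 against iNKT2 interaction 0 without C57BL/6 iNKT2 replicate 2 or either Hivep3-/- iNKT1 library. The causes were not tested further. No direction reversed under any of these alternatives. Over the single regions, 708 results kept their call and 97 lost it. Of the losses, 52 came with the pseudocount of 5, 20 with that of 1 and 2 with a renewed quantile normalization. The rest came when a library was left out. A region not tested under an alternative counted as neither. The filter on the mean of all 12 libraries thus gave 38 results, against 63 without a filter. The 63 results of the 2-fold limit were kept by construction. The tally therefore overstates how well the calls held.

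The fit with the replicate block gave 12, 8 and 11 members for the C57BL/6 pairings, 11, 9 and 8 for the Hivep3-/- pairings, and 0, 1 and 1 for the genotype in iNKT1, iNKT2 and iNKT17, and changed no count of calls. Read depth is unknown, so the precision of low values could not be separated by library.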
